A study of Mus musculus with 4 samples.

Results

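The insulin-like growth factor (IGF) axis was examined in pancreatic islets of mice that carry a GPR41 transgene (41 Tg, here Tg) and of their wild-type (WT) littermates. The 10 genes were chosen by symbol: the growth factor genes Igf1 and Igf2, the receptor genes Igf1r and Igf2r, the binding protein genes Igfbp2, Igfbp3, Igfbp5 and Igfbp7, and the binding protein protease genes Pappa and Pappa2. Each had 1 probeset (a set of array probes that reads 1 transcript) paired with its symbol alone, so all 10 were measured, of 22180 genes in all. The choice of genes was made with earlier results of these arrays known, among them the lower value of Pappa2 in Tg islets. Both groups were C57BL/6 mice 5 to 6 months old, whose islets were kept in RPMI medium before RNA was isolated, with 2 Affymetrix Mouse Gene 2.0 ST arrays per group. Sample titles speak of biological replicates but not of how many mice gave the islets for an array, and the labels do not give the promoter or the number of lines of the transgene.

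IGF1 and IGF2 are small hormones related to insulin that act on growth and survival through the tyrosine kinase receptor encoded by Igf1r. The product of Igf2r binds IGF2 and carries it to lysosomes without such a kinase. IGF-binding proteins hold both hormones outside the cell. Pappalysins, the metalloproteases encoded by Pappa and Pappa2, cut some of these proteins, Igfbp5 protein among them, and thereby free the hormone, while stanniocalcins inhibit the pappalysins. Islet cells respond to both hormones, and IGF2 is known as a factor that beta cells make for themselves.

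Islet hormone genes were high on every array. Ins2 lay between 12.46 and 12.59, Gcg between 13.45 and 13.64 and Sst between 12.87 and 13.43 on the deposited log2 scale, on which array medians were 6.43 to 6.47. Exocrine genes were also high, with Ctrb1, a chymotrypsinogen gene, at 13.56 to 13.89. Ffar3, the mouse gene of GPR41, was at 7.09 and 6.47 in WT islets, against 11.02 and 10.98 in Tg islets, so the receptor gene was high on the arrays labelled Tg.

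Igfbp5 and Igfbp2 are next to each other in the order of protein-coding genes with a probeset of their own, yet they differed in their response, and Pappa2 was the member that was lower by most in Tg islets. The bases before their annotated starts are therefore shown, from RefSeq, build GRCm38.p6, in the direction of transcription. Capitals mark the motif TATTTA, one of the variants of the core promoter element that TBP binds. For Igfbp2 the first of 2 annotated starts is shown.
Igfbp5 (chr1:72874866-72875115, minus strand): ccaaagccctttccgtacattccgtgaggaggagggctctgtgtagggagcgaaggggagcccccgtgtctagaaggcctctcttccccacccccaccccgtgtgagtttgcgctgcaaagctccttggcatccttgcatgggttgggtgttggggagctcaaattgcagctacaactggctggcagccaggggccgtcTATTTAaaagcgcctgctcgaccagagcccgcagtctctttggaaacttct
Igfbp2 (chr1:72824230-72824479, plus strand): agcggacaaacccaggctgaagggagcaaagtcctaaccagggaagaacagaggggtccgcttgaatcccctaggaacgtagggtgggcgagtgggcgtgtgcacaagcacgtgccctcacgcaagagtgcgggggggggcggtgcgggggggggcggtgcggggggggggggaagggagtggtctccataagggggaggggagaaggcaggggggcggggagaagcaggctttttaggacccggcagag
Pappa2 (chr1:158958176-158958425, minus strand): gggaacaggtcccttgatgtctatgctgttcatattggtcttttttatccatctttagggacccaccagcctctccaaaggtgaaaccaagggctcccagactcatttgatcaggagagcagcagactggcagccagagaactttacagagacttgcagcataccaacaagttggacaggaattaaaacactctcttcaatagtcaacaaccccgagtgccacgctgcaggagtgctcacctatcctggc
Of the 10 genes, 9 had such windows, 13 in all because Igf2 has several starts and Igfbp2 has 2, and Pappa was not in the table. TATTTA was found in 1 of the 13 windows, that of Igfbp5, with its first base 51 bases before the start, and in 12.7% of the 32851 windows of 250 bases in the table. The motif TATAAA was in 0 of the 13 and in 12.4% of all windows. TTCNNNGAA, the core of the sites that STAT factors bind, was in 0 of the 13 and in 7.02% of all. Both strands were searched, and the motifs do not overlap in these windows. Other variants of the TBP element were not searched, such as TATATA, which the window of Igfbp3 holds. The counts therefore do not show that Igfbp5 alone has such an element. A match or its absence describes these letters and no binding.

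Among the 10 genes, Igfbp5 and Pappa rose and Pappa2 fell in Tg islets, and the other 7 did not pass the test. The test was limma's moderated model fitted to all genes, and a call is a Benjamini-Hochberg adjusted p under 0.05. Higher calls were made for 0.672% of all genes and lower calls for 0.225%, 0.897% together, against 2 and 1 of these 10. Because the genes were picked with such results known, their share of calls is a description only. Without limma's moderation of the variances, 0 genes passed, these 3 included, at unchanged differences (adjusted p = 0.452 to 0.49). The median difference, Tg minus WT, was 0.14 for the 10 genes and -0.02 for all genes, on the log2 scale.

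**Figure D1:**
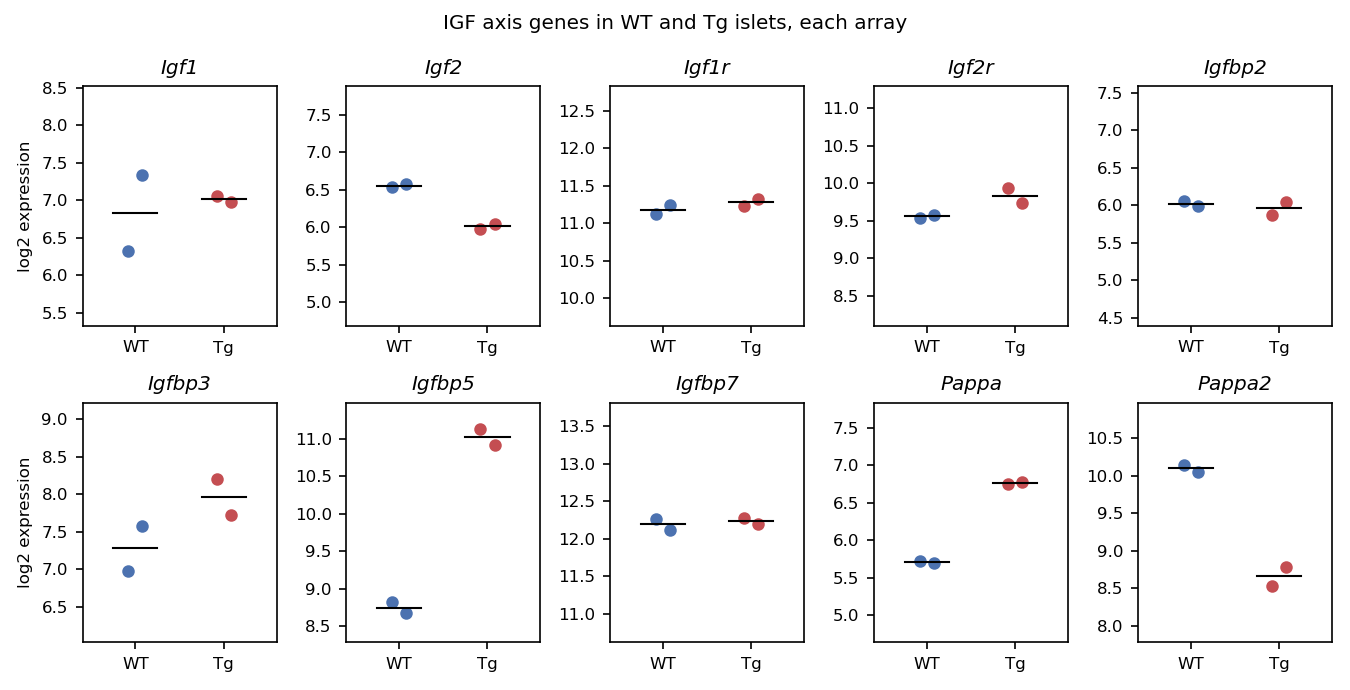
Log2 expression of each IGF axis gene on the 2 WT arrays (blue) and the 2 Tg arrays (red), with a black line at the group mean. Every panel spans the same number of log2 units. The groups lie far apart for Igfbp5, Pappa and Pappa2, and the WT arrays lie far apart for Igf1.

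Igfbp5 encodes a binding protein that attaches to extracellular matrix and has effects of its own besides holding IGFs. It was at 8.82 and 8.67 in WT islets, against 11.13 and 10.91 in Tg islets. Both Tg arrays were high, and the gap between the groups was many times that within either. It rose 4.83-fold (log2 difference 2.27, SE 0.13, 95% confidence interval 1.96 to 2.59, adjusted p = 0.00323). With each array left out in turn the difference stayed between 2.16 and 2.38 and past the threshold.

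Igfbp5 differed from the genes beside it. Igfbp2, its neighbour on one side and a binding protein gene too, was at 6.06 and 5.99 in WT islets, against 5.87 and 6.05 in Tg islets. These groups overlapped (difference -0.07, SE 0.12, adjusted p = 0.901). Tnp1, a spermatid nuclear protein gene on the other side, had a difference of -0.04 (SE 0.15). Tnp1 lay at 4.47 to 4.83, below the first quartile of every array, and Igfbp2 lay below the array medians. At such low levels a difference on this scale can understate a change in RNA, which limits the comparison with these neighbours.

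The other binding protein genes did not pass the test. Igfbp3, whose product carries most IGF in blood, was at 6.98 and 7.58 in WT islets, against 8.21 and 7.73 in Tg islets. The groups did not overlap, but WT replicate 2 and Tg replicate 2 were close (difference 0.69, SE 0.25, adjusted p = 0.367). Without WT replicate 1 the difference was 0.39, without Tg replicate 1 it was 0.45, and without WT replicate 2 it was 0.99. Igfbp7, a vascular matrix protein gene with weak affinity for IGFs, lay between 12.12 and 12.28 on all arrays with overlapping groups (difference 0.05, 95% confidence interval -0.22 to 0.33). Differences this near the top of the scale can be compressed.

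The pappalysin genes went opposite ways. Pappa was at 5.73 and 5.70 in WT islets, against 6.75 and 6.78 in Tg islets, so that arrays of a group were nearly equal. It rose 2.08-fold (log2 difference 1.06, SE 0.10, 95% confidence interval 0.81 to 1.31, adjusted p = 0.0203). Its WT values lay below the array medians, where a difference on this scale can understate the change in RNA. Pappa2 was at 10.15 and 10.05 in WT islets, against 8.53 and 8.79 in Tg islets. Both WT arrays stood above both Tg arrays, and it fell 2.71-fold (log2 difference -1.44, SE 0.13, 95% confidence interval -1.76 to -1.12, adjusted p = 0.0168).

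Within each array, Pappa minus Pappa2 was -4.43 and -4.35 log2 units in WT islets, against -1.78 and -2.01 in Tg islets. The ratio thus shifted by 2.49 log2 units, 5.63-fold, toward Pappa in Tg islets, while its size on any array also depends on the probes. Both calls depended on all 4 arrays. With any 1 array left out, the adjusted p was 0.0561 to 0.137 for Pappa and 0.0536 to 0.102 for Pappa2, whereas the differences stayed at 1.04 to 1.07 and at -1.57 to -1.31.

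In the gene order, Pappa lies between Tnc and Astn2, and Pappa2 between Astn1 and Cop1. Tnc, which encodes the matrix protein tenascin C, was at 6.63 and 7.85 in WT islets, against 7.44 and 7.16 in Tg islets. Its difference was 0.06 (SE 0.38), which is imprecise because the WT arrays lay far apart. Astn2, an astrotactin gene, had a difference of -0.01 (SE 0.12). Astn1 was at -0.22 (SE 0.10) and the ubiquitin ligase gene Cop1 at -0.07 (SE 0.11). None of these 4 neighbours passed the test.

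**Figure D2:**
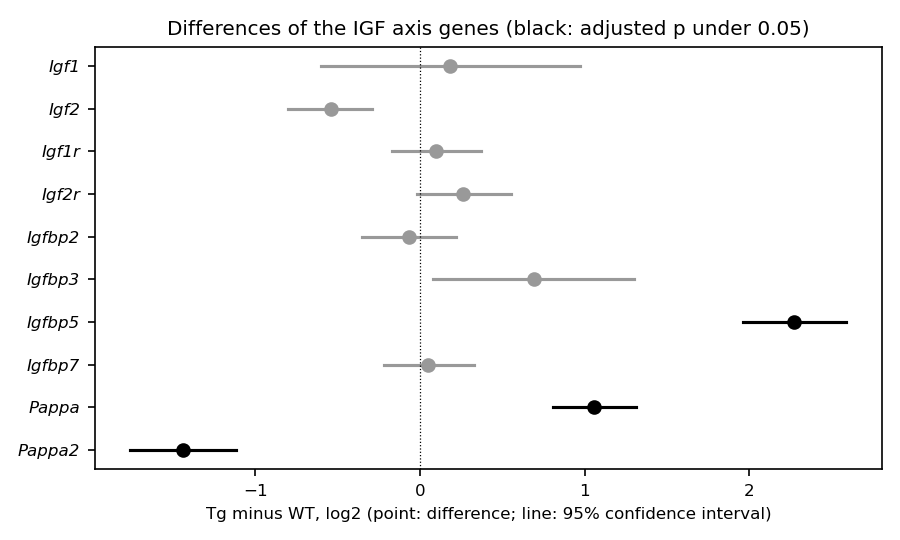
Tg minus WT difference of each IGF axis gene on the log2 scale (points) with its 95% confidence interval from limma (lines), black where the adjusted p was under 0.05. Igfbp5 at 2.27 and Pappa at 1.06 lie to the right of 0, Pappa2 at -1.44 to the left, and the other 7 are grey.

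Of the growth factor genes, Igf2 was lower on both Tg arrays without passing the test. It was at 6.53 and 6.58 in WT islets, against 5.98 and 6.04 in Tg islets. The groups did not overlap, and the gap was far wider than the spread within a group (difference -0.54, SE 0.10, 95% confidence interval -0.80 to -0.29, adjusted p = 0.106). Over the alternatives its adjusted p ranged from 0.0948 to 0.472. Ins2, the insulin gene beside Igf2, was at 12.57 and 12.46 in WT islets, against 12.52 and 12.59 in Tg islets (difference 0.04, SE 0.11). A difference of Ins2 can be compressed this near the top of the scale.

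Igf1 varied most between arrays of 1 group. It was at 6.32 and 7.34 in WT islets, against 7.06 and 6.98 in Tg islets. The Tg arrays lay between the WT arrays, so the groups overlapped (difference 0.18, SE 0.32, 95% confidence interval -0.60 to 0.97, adjusted p = 0.9). The sign rested on 1 array: the difference was -0.33 without WT replicate 1 and 0.70 without WT replicate 2.

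The receptor genes differed little. Igf1r was at 11.13 and 11.24 in WT islets, against 11.23 and 11.33 in Tg islets, with overlapping groups (difference 0.10, 95% confidence interval -0.17 to 0.37, adjusted p = 0.811). Igf2r was at 9.54 and 9.58 in WT islets, against 9.93 and 9.73 in Tg islets. Its groups did not overlap, and it did not pass the test (difference 0.26, 95% confidence interval -0.02 to 0.55, adjusted p = 0.460). The difference was 0.17 without Tg replicate 1. An interval that spans 0 leaves room for a change in either direction up to its bounds.

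Groups did not overlap for 6 of the 10 genes, and for 42.3% of all genes. The Tg arrays were the higher ones for Igf2r, Igfbp3, Igfbp5 and Pappa, 4 of the 10, and for 18.6% of all genes, and the lower ones for Igf2 and Pappa2, 2 of the 10, and for 23.7% of all genes. By a looser rule, at least 1.5-fold at an unadjusted p under 0.05, 4 of the 10 genes differed, Igfbp3 joining the 3 calls, and 3.48% of all genes did.

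Other genes of the pathway, and genes related to it such as imprinted and CCN matrix genes, were read from 7 lists. All are called pathway genes here, and 85 of 92 symbols were measured. The lists were drawn up with earlier results for Zim1, Socs2 and Cish known. Of the 85 genes, 4 rose and 1 fell, against 0.897% of all genes called in either direction. Because Zim1, Socs2 and Cish are among these calls, this share is a description only. The median difference of the 85 was -0.02, as it was for all genes. An unadjusted p under 0.05 was found in the same limma fit for 13 of the 85, and for 2627 of all 22180 genes. Higher values in Tg islets were seen for 40 of the 85 and lower ones for 45, against 10147 and 12033 of all genes.

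**Figure D3:**
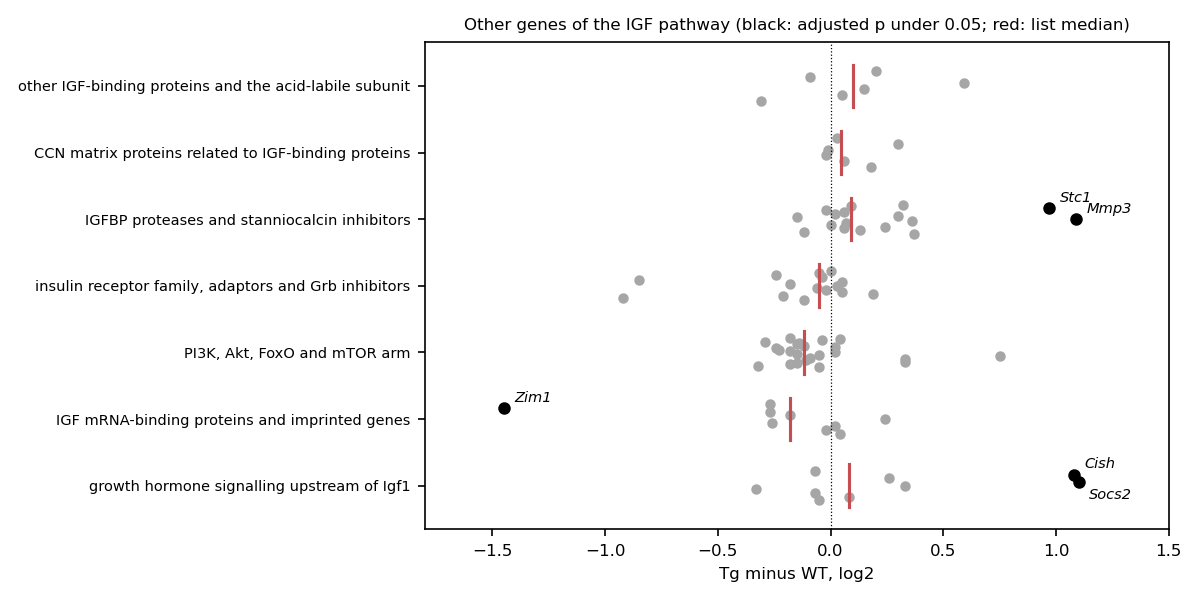
Tg minus WT difference on the log2 scale of each measured gene in 7 lists of IGF pathway and related genes (points). Genes are black and named where the adjusted p was under 0.05, and the list median is in red. Stc1, Mmp3, Socs2 and Cish lie near 1, Zim1 lies at -1.45, and list medians lie between -0.18 and 0.10.

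In the list of binding protein proteases and stanniocalcins, 2 of 17 genes rose, 0 fell, and the median was 0.09. Stc1, a stanniocalcin gene whose product inhibits pappalysins, was at 6.89 and 7.0 in WT islets, against 7.98 and 7.86 in Tg islets. Both Tg arrays were higher, and Stc1 rose 1.96-fold (difference 0.97, SE 0.11, adjusted p = 0.0326). Stc2, the other stanniocalcin gene, was at 6.11 and 6.91 in WT islets, against 6.70 and 6.50 in Tg islets, with the Tg values between them. Mmp3, the stromelysin gene, whose enzyme cuts matrix and binding proteins, was at 5.30 and 5.53 in WT islets, against 6.54 and 6.46 in Tg islets. It rose 2.12-fold from values below the array medians (difference 1.09, SE 0.12, adjusted p = 0.0326). Htra1, a secreted serine protease gene, was at 0.37 (SE 0.12) without passing. With any 1 array left out, neither Stc1 nor Mmp3 passed, and the adjusted p was 0.0814 to 0.203 for Stc1 and 0.0543 to 0.202 for Mmp3.

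Among the remaining binding protein genes and Igfals, 0 of 6 passed, 1 had an unadjusted p under 0.05, and the median was 0.10. Igfals encodes the acid-labile subunit that holds IGF complexes in blood, and it was at 0.59 (SE 0.17, adjusted p = 0.262). Igfbp1, which lies next to Igfbp3 in the gene order, was at -0.31 (SE 0.13), and Kazald1 at 0.20 (SE 0.12). Igfbp4, another pappalysin substrate, was at 6.69 and 6.65 in WT islets, against 6.49 and 6.95 in Tg islets, with overlapping groups. Of the related CCN matrix protein genes, 0 of 6 passed and 0 had an unadjusted p under 0.05 (median 0.04), with Ccn5 at 0.30, Ccn1 at 0.18 and Ccn2 at 0.06.

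Of the insulin receptor family and its adaptors, 0 of 15 passed, 2 had an unadjusted p under 0.05, and the median was -0.05. Insrr, the insulin receptor-related receptor gene, was at 11.03 and 10.60 in WT islets, against 10 and 9.79 in Tg islets. Its groups did not overlap (difference -0.92, SE 0.17, adjusted p = 0.106), and it passed in 1 of 14 alternatives, a variance trend with a robust prior (adjusted p = 0.0387). Gab1, a docking protein gene, was at -0.85 (SE 0.21) and Sos2, a Ras exchange factor gene, at -0.24 (SE 0.10). In the PI3K, Akt, FoxO and mTOR list, 0 of 23 measured genes passed, 2 had an unadjusted p under 0.05 and 17 were lower, with a median of -0.12. The smallest p-values there were those of Inpp5d, a lipid phosphatase gene of blood cells, at 0.75 (SE 0.20), of the kinase gene Akt1 at 0.33 (SE 0.10), and of the PI3K subunit gene Pik3cb at -0.32 (SE 0.15).

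Growth hormone raises Igf1 in liver through STAT5, and cytokine-induced SOCS proteins restrain that signal. In this list 2 of 9 genes rose and 0 fell, with a median of 0.08. Socs2 was at 10.10 and 10.36 in WT islets, against 11.36 and 11.32 in Tg islets (difference 1.10, SE 0.13, adjusted p = 0.0334). Cish was at 7.06 and 7.37 in WT islets, against 8.35 and 8.25 in Tg islets (difference 1.08, SE 0.14, adjusted p = 0.0402). Tg arrays were the higher ones for both. Cish did not pass as the mean of its probesets (0.75, adjusted p = 0.0955) or with any 1 array left out (0.0539 to 0.241). Socs2 did not pass without WT replicate 1 (0.0694), Tg replicate 1 (0.203) or Tg replicate 2 (0.147). Stat5b was at -0.33 (SE 0.11) and the receptor gene Ghr at -0.05 (SE 0.13).

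In the list of the IGF mRNA-binding protein gene Igf2bp3 and imprinted genes, 1 of 9 measured genes fell and 0 rose, with a median of -0.18. Zim1, an imprinted zinc finger gene, was at 10.66 and 10.24 in WT islets, against 9.08 and 8.91 in Tg islets (difference -1.45, SE 0.17, adjusted p = 0.0334). It did not pass without WT replicate 1 (0.0521), Tg replicate 1 (0.156) or Tg replicate 2 (0.148). Peg3, an imprinted zinc finger gene too, was at -0.27 (SE 0.14), and Dlk1 at 0.24 (SE 0.18).

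The genes whose values over the 4 arrays were most like those of a called gene were found by the root mean square distance between log2 values, each gene centred on its own mean. Only genes with a mean above the median of all genes were searched, without predicted or clone-named genes. Pappa itself lay below that median. With 4 arrays in 2 groups, such likeness mainly means a Tg minus WT difference of like size. Nearest to Igfbp5 were Pde7b, a cyclic AMP phosphodiesterase gene (distance 0.051), Pros1, which encodes the anticoagulant protein S (0.079), and Rph3a, a vesicle protein gene (0.101). Pde7b was at 8.35 and 8.12 in WT islets, against 10.55 and 10.29 in Tg islets. Nearest to Pappa were Fcgr2b, an inhibitory Fc receptor gene (0.020), Retreg1, a receptor gene of endoplasmic reticulum turnover (0.033), and Mzb1, a gene of antibody-making B cells (0.054). Nearest to Pappa2 were the calcium-binding protein gene Necab2 (0.030), the sulfotransferase gene Ust (0.078) and Taar1 (0.089). Necab2 was at 8.46 and 8.28 in WT islets, against 6.77 and 7.03 in Tg islets.

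Markers of other cell types moved beside some of these genes, and in whole islets fewer cells of a type and less RNA per cell cannot be told apart. Of the leukocyte markers, 11 of 11 measured were higher in Tg islets (median 0.73), with mean levels of 6.79 and 6.83 in WT islets, against 7.60 and 7.43 in Tg islets. Coro1a, an actin-binding protein gene of leukocytes, rose (0.94, SE 0.10, adjusted p = 0.0309) and was the only 1 of the 11 to pass the test. Ptprc, which had the largest difference of this list, did not pass (1.58, SE 0.36, adjusted p = 0.166). Of the 11, 8 had an unadjusted p under 0.05, against 2627 of all 22180 genes. Over all genes, 10147 were higher in Tg islets and 12033 lower. Of the mesenchymal markers, 13 of 14 were higher (median 0.31), with means of 6.83 and 6.93 in WT islets, against 7.34 and 7.20 in Tg islets. Dcn, the decorin gene, led that list at 1.79 (SE 0.26), while the collagen genes Col1a1 (0.10), Col1a2 (0.07) and Col3a1 (0.07) did not follow, and Lum lay at 4.03 to 4.23, below the first quartile of every array. Of the endothelial markers, 12 of 12 were higher (median 0.34), with means of 7.90 and 7.70 in WT islets, against 8.30 and 8.05 in Tg islets. Igfbp5, at 2.27, differed by more than any measured marker of these 3 lists. No mesenchymal or endothelial marker passed the test, and 4 and 6 of them had an unadjusted p under 0.05. Arrays ranked by Igfbp5 or Inpp5d had the same order as by the mean of the endothelial markers. Ranked by Igfbp3 or Mmp3, they had the order of the leukocyte and mesenchymal means, and ranked by Pappa that of none of the 3. With Tg arrays above WT arrays in each case, only the order within a group could differ. A match or its absence therefore says little. For Pappa that order rests on gaps of 0.03, and for the leukocyte mean of the WT arrays on 6.79 against 6.83. The part of these cells in the values of Igfbp3, Igfbp5, Pappa, Mmp3 or Inpp5d was not tested.

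**Figure D4:**
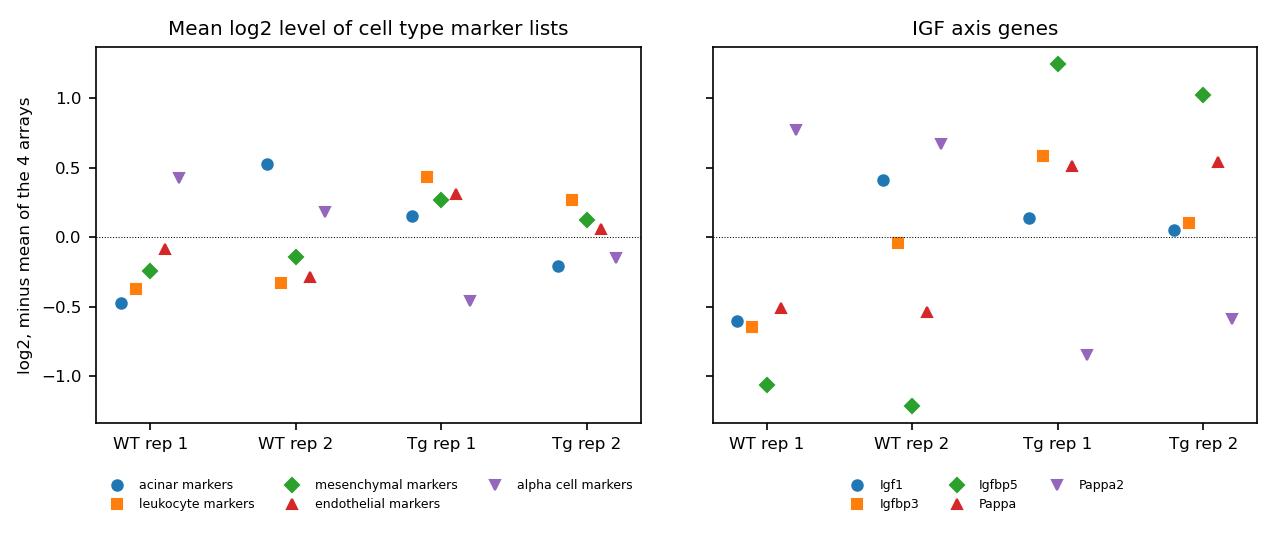
Left, mean log2 level of 5 lists of cell type markers on each array. Right, log2 level of 5 IGF axis genes. All are shown relative to their own mean over the 4 arrays. Igf1 and acinar markers are lowest on WT replicate 1 and highest on WT replicate 2, and Pappa2 and alpha cell markers are higher on the WT arrays than on the Tg arrays.

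Alpha cell markers were lower in Tg islets for 5 of 5 measured genes (median -0.67), with means of 10.56 and 10.31 in WT islets, against 9.67 and 9.98 in Tg islets. None passed the test, 4 had an unadjusted p under 0.05, and the largest difference was that of Etv1, at -0.94, against -1.44 for Pappa2. Gcg, the glucagon gene, was at -0.15, but it lay at 13.45 to 13.64, near the top of the scale, where differences can be compressed. Arrays ranked by Pappa2 had the order of the mean of these markers, where again only the order within a group could differ. Beta cell markers had a median of -0.11 over 9 genes, delta cell markers one of -0.32 over 4 genes and PP cell markers one of -0.07 over 2 genes. The part of these cell types in the value of Pappa2 was not tested.

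Arrays ranked by Igf1 had the order of the mean acinar and duct marker levels. Acinar markers had means of 11.22 and 12.22 in WT islets, against 11.85 and 11.49 in Tg islets, and duct markers 8.07 and 8.88 in WT islets, against 8.66 and 8.57 in Tg islets. WT replicate 1 was lowest and WT replicate 2 highest for both lists and for Igf1, and the part of exocrine tissue in the values of Igf1 was not tested. The acinar list had a median difference of 0.02 over 9 genes, with 0 calls and 0 unadjusted p-values under 0.05. The duct list had a median of -0.02 over 6 genes, of which 1 rose and 1 fell. Cftr, a chloride channel gene, was at 5.13 and 5.83 in WT islets, against 7.80 and 7.75 in Tg islets (difference 2.30, SE 0.23, adjusted p = 0.0211). Prom1, which encodes the membrane protein prominin, was at 10.31 and 10.26 in WT islets, against 9.16 and 9.40 in Tg islets (difference -1.0, SE 0.12, adjusted p = 0.0355). Neither followed the array order of Igf1.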

How the data were processed

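Expression was measured on Affymetrix Mouse Gene 2.0 ST arrays from 250 ng of total RNA, and the range of the authors' deposited values shows a log2 scale. Per the submitters' processing notes, Partek and RMA were used (RMA corrects background, sets array distributions equal and summarises probes). Their versions and a genome build are not given in the sources used here. Of 27037 probesets, 23521 were paired with 1 symbol by the platform annotation, 1814 with several and 1702 with none. The brightest probeset by mean over the 4 arrays stood for a gene, which fixed a choice for none of the 10 genes described. Groups came from sample titles.

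All 22180 genes, without a filter, entered limma 3.58.1 (lmFit, then eBayes; R 4.3.3), with 2 residual and 3.76 prior degrees of freedom. The fit was also run on data simulated from its own fitted prior with independent errors, which cannot test whether these assumptions hold for the arrays. An exact two-sided permutation test of 2 arrays against 2 cannot go below 0.333, so p-values rest on the model and measure only the spread between these arrays, whose number limits precision. Every member is named, as are, from each pathway list, all calls and the 3 genes with the smallest p, and 3 genes nearest to each called member. Igfbp4, Stc2, Ghr, gene neighbours and markers named beyond this rule were chosen after their values were seen. The members and lists were chosen with earlier results of these data known. Gene order came from a RefSeq table of GRCm38.p6. The alternatives were other probeset choices, a level filter, normalisations, variance priors, a replicate block, a 2-fold limit and each array left out.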

Additional observations from a re-analysis of the deposited data

How the results depend on the processing

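The calls rest on limma's sharing of variance across genes and on all 4 arrays. Without moderation, 0 genes passed (1928 at an unadjusted p under 0.05), hence 0 of the 10 and 0 pathway genes, where Igfbp5 (2.27, adjusted p = 0.472), Pappa (1.06, 0.452) and Pappa2 (-1.44, 0.490) kept their differences. With the replicate block 24 genes passed, 1 of the 10 (Igfbp5, adjusted p = 0.0383) and 0 pathway genes, with Pappa at 1.06 (0.122) and Pappa2 at -1.44 (0.118). Over all genes, the difference between replicates had a correlation of -0.063 across the groups. This value cannot tell whether arrays of the same replicate number were handled together. With each array left out, 38 to 135 genes passed against 199, 1 of the 10 each time (Igfbp5), and 0 to 2 pathway genes against 5; the lone array of a group is then assumed to vary like the others. With a variance trend and a robust prior, 347 genes passed. Pappa, Igf2 and Igfbp2 were not tested with the filter at the median level. Differences with each array left out ranged from -0.33 to 0.70 for Igf1 (-0.33 without WT replicate 1), -0.16 to 0.027 for Igfbp2 (0.027 without Tg replicate 1), -0.017 to 0.12 for Igfbp7 (-0.017 without WT replicate 2), 1.04 to 1.07 for Pappa and -1.57 to -1.31 for Pappa2; these 3 sign changes concern genes that passed in no alternative, and the cause was not tested. No other sign change of the 10 genes was seen.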
